A study of Drosophila melanogaster
Mus musculus with 6 samples.

Results

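Chromosome 13 of the mouse genome was described through 2 histone marks, H3K36me2 and H3K27me3, in cells that express a lysine-to-methionine mutant of histone H3 and in cells that express the normal protein. The chromosome was chosen by its measured values: among the 19 autosomes its bins had the lowest median log2 ratio of H3K36me2 between the lines, -2.47, and chromosome 10 was next at -2.25. Every value of H3K36me2 between the lines on chromosome 13 is therefore a description and supports nothing. The members were all 10 kb rows of the deposited table on this chromosome with signal in any library, which gave 11279 of the 248945 such bins in the table. They covered 113 Mb between positions 3000001 and 120270000 of mm9. A single 10 kb row without signal and 185 rows of other widths, 174 of them 20 kb wide, were left out, and those of other widths held 3.73% of the WT H3K36me2 signal of the chromosome.

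The cells were C3H10T1/2, mesenchymal progenitors from embryos of C3H mice. K36M cells stably expressed FLAG-HA-tagged histone H3.1 with methionine at lysine 36, and WT cells stably expressed the same tagged H3.1 without the change, so the tag and the added histone gene were shared by both lines. The 6 samples were immunoprecipitates of H3K36me2 and of H3K27me3 and an input from each line, 1 sample per group, and Drosophila S2 chromatin had been added as an external reference. The table used here had columns for the 4 immunoprecipitates and none for input, and the labels do not say whether a line was a clone.

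H3K36me2 is laid down over broad stretches of genes and intergenic euchromatin by enzymes of the NSD family, and the K36M histone is known to block H3K36 methyltransferases. H3K27me3 is the product of Polycomb repressive complex 2, which is known to act poorly on a histone tail that already carries H3K36 methylation. Both marks are therefore commonly studied together. K36M mutations of H3 are known from chondroblastoma, a cartilage tumour, and mesenchymal progenitors are used as a model of the cells they affect.

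Values are in scaled reads, the reads of a bin multiplied by 1 factor per library that the authors had applied. Chromosome 13 held 2335632 reads for H3K36me2 in K36M cells and 3535034 in WT cells, and 1502329 reads for H3K27me3 in K36M cells and 1438124 in WT cells. Its median bin held 88 reads for H3K36me2 in K36M cells against 274 in WT cells, and 123 for H3K27me3 in K36M cells against 64 in WT cells. Intervals are 95% intervals and cover counting error only: the reads carry no molecular identifiers, so several may stem from 1 molecule. Each group has 1 library, so differences between the lines were not tested, and ranks among autosomes describe these 4 libraries.

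The first comparison asked how far each mark differed between the lines over the whole chromosome. The median bin of chromosome 13 had 6.86 scaled reads of H3K36me2 in K36M cells (interquartile range 5.54 to 11.4), against 174 in WT cells (61.1 to 306). The mean was 16.2 in K36M cells and 199 in WT cells. The K36M mean was thus 0.0810 of the WT mean (0.0809 to 0.0812), or 12.3-fold lower. The WT median was the highest of the 19 autosomes, the others reaching 61.1 to 151, whereas the K36M median was the fifth highest and lay within the range of the others, 5.15 to 7.33. By median, chromosome 13 thus stood at the end of the order in WT cells and inside it in K36M cells. Of its bins, 11039 (97.9%) had less H3K36me2 in K36M than in WT cells, and the share on the other 18 autosomes was also 97.9%.

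H3K27me3 went the other way. The median bin had 36.3 scaled reads in K36M cells (19.8 to 54.6), against 6.98 in WT cells (3.71 to 16.9). Means were 39.3 in K36M cells and 13.9 in WT cells, a ratio of 2.83 (2.821 to 2.834), which only chromosome 16 exceeded among the autosomes, at 3.16. The K36M median was the highest of the 19, just above chromosome 19 at 35.7, and the WT median was the second highest, below chromosome 19 at 7.68. Per bin, on a log2 scale with 1.64 scaled reads added, the median difference was 1.72 on chromosome 13 and 1.67 on the other autosomes together. That placed chromosome 13 sixth among the 19, and its excess of 0.05 was smaller than the standard deviation of the same quantity over the other 18 autosomes, 0.12.

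**Figure D1:**
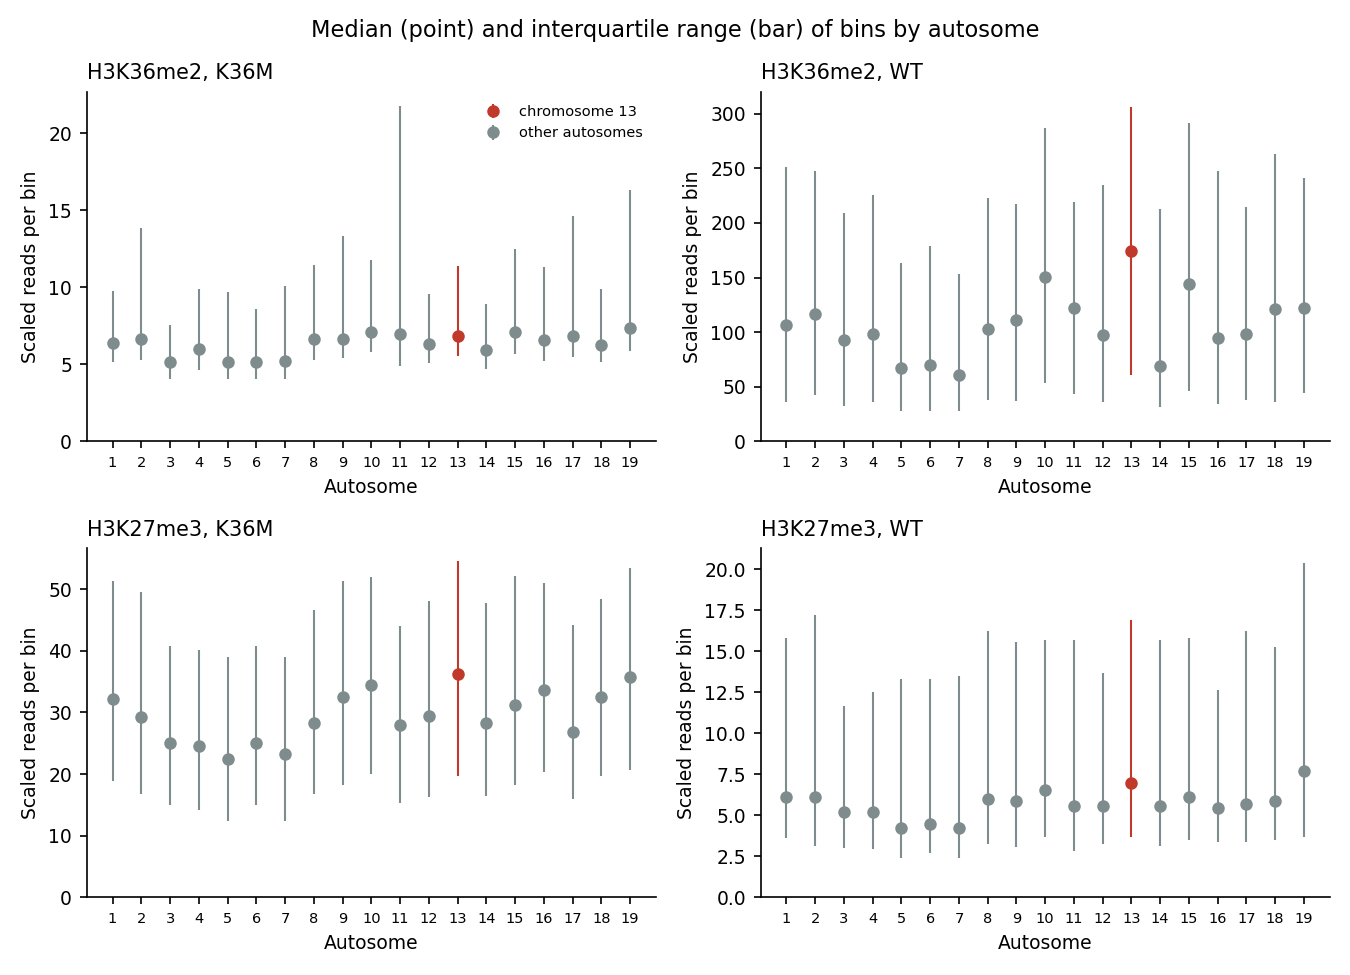
Median (point) and interquartile range (bar) of scaled reads per 10 kb bin for each of the 19 autosomes, K36M libraries on the left and WT libraries on the right, with chromosome 13 in red. Chromosome 13 has the highest WT H3K36me2 median, 174, and an unremarkable K36M one, 6.86.

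Shares of reads do not depend on the library factors and again put chromosome 13 higher among autosomes for H3K36me2 in WT than in K36M cells. Chromosome 13 holds 4.86% of the autosomal bins. It took 4.86% (4.856% to 4.868%) of autosomal H3K36me2 reads in K36M cells and 6.32% (6.312% to 6.324%) in WT cells, so its WT share was 1.30 times its share of bins and its K36M share equalled it. For H3K27me3 it took 5.61% (5.603% to 5.621%) of reads in K36M cells and 5.08% (5.074% to 5.090%) in WT cells. With each library scaled to its own total, the ratio of K36M over WT was 0.765 for H3K36me2 (others 0.851 to 1.24). For H3K27me3 it was 1.12 (others 0.903 to 1.26). That scale makes the library totals equal, so these ratios place chromosome 13 against the whole library and show no direction of change. For H3K36me2 that place follows from how the chromosome was chosen. Levels at the low end of the chromosome were also above the middle of the autosomes. The 10th percentile of its bins was 4.52 for H3K36me2 in K36M cells and 33.1 in WT cells, against medians over the other autosomes of 4.17 in K36M and 26.7 in WT. For H3K27me3 it was 10.9 in K36M cells and 2.29 in WT cells, against 10.0 in K36M and 2.18 in WT. DNA content was not measured, as no input column was used, and its part in these levels was not tested.

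The next comparison set chromosome 13 against other autosomes at the same WT level of H3K36me2. Bins of the 19 autosomes were divided into 10 equal groups by WT H3K36me2. Chromosome 13 was rich in the upper groups: 19.1% of its bins lay in the highest decile, against 9.58% on the other autosomes, and 4.22% in the lowest, against 9.97%. The highest 3 deciles held 44.9% of the bins of chromosome 13, more than on any other autosome (16.5% to 40.5%), and the lowest 3 held 16.7%, less than on any other (17.5% to 41.2%). Within a decile the K36M level of H3K36me2 was close to that elsewhere. In the highest decile the K36M median was 8.35 on chromosome 13 and 8.66 on the other autosomes together. In the seventh decile it was 7.84 on chromosome 13, against 9.13, and ranked eighteenth of 19. In the second decile it was 5.30, against 4.76, and equalled the highest of the other autosomes.

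On the log2 scale with 19.7 scaled reads added, the median H3K36me2 difference of chromosome 13 was 0.83 below that of the other autosomes over all bins. Decile by decile, chromosome 13 differed from the others by -0.06 to 0.04, with a median of -0.02 over the 10 deciles, smaller than the standard deviation over the other 18 autosomes, 0.03. The added 19.7 exceeds the median K36M level of every decile on chromosome 13, so the log2 ratio within a decile largely follows the WT level, and the K36M medians above are the more direct values. At matched WT H3K36me2 the H3K27me3 difference of chromosome 13 from the others had a median of -0.02, against a standard deviation of 0.10. With WT H3K27me3 matched as well, the difference turned to 0.08, against a standard deviation of 0.07, and only 2 of the other 18 autosomes were higher. H3K27me3 levels themselves were higher than elsewhere in the middle deciles in both lines: in the seventh decile the median was 26.99 in K36M cells and 10.5 in WT cells on chromosome 13, against 23.3 in K36M and 6.76 in WT on the other autosomes, and the WT value was the highest of the 19.

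**Figure D2:**
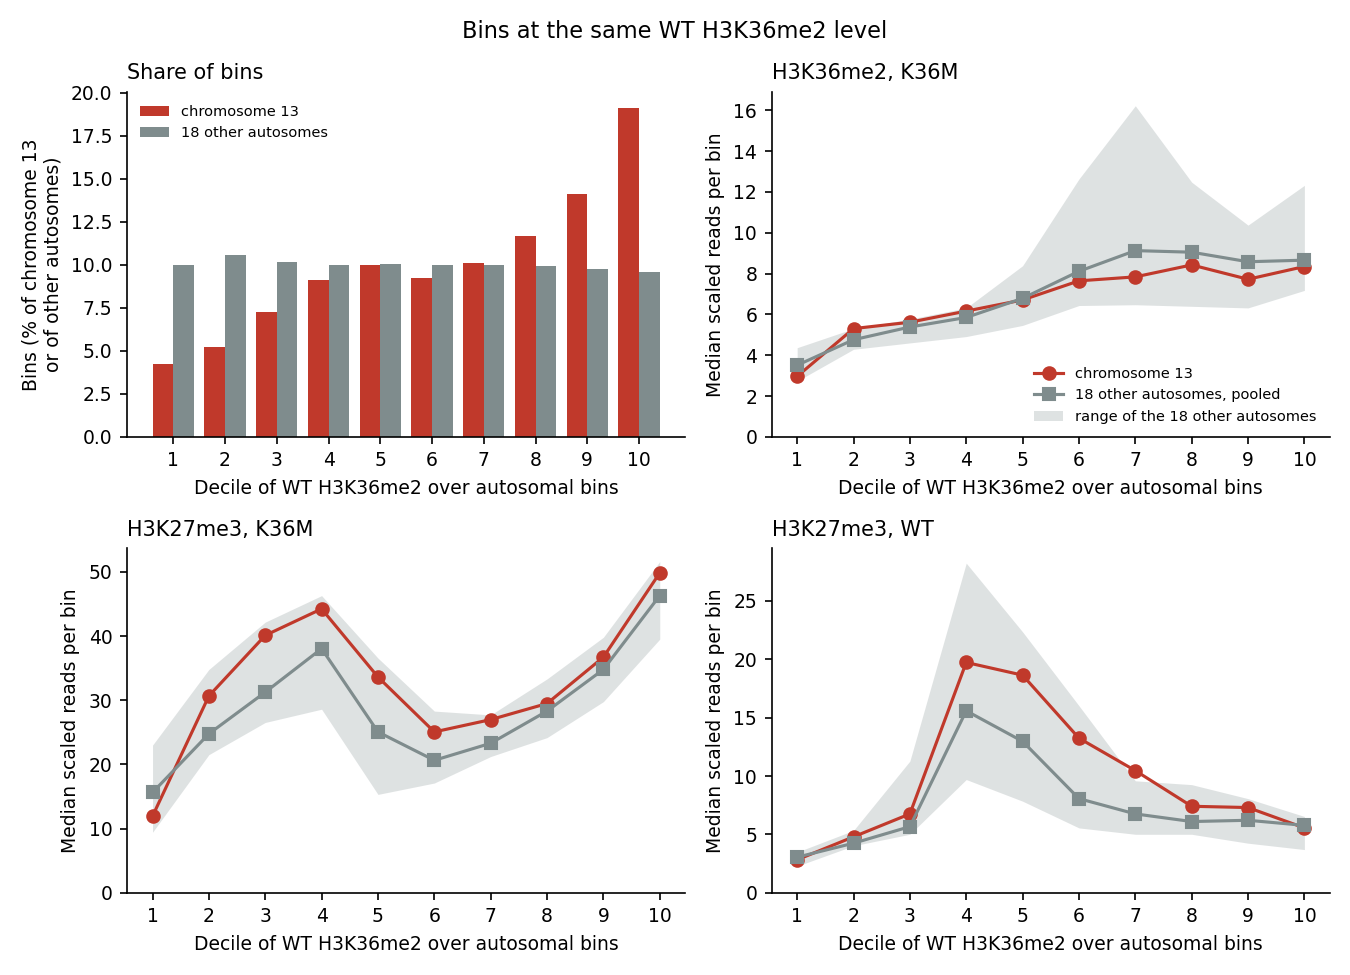
Share of bins (top left, %) and median scaled reads per bin of 3 libraries, by decile of WT H3K36me2 over autosomal bins, for chromosome 13 (red) and the other 18 autosomes pooled (grey, with the range of single chromosomes shaded). Chromosome 13 has 19.1% of its bins in the highest decile, and its K36M H3K36me2 medians stay within the range of the others in all 10 deciles.

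Along the chromosome, 1 Mb windows were compared, using the 116 with at least 80 kept bins. H3K36me2 was lower and H3K27me3 higher in K36M than in WT cells in 116 of 116 windows with the deposited factors. Mean H3K36me2 per window ran from 3.04 to 42.4 scaled reads per bin in K36M cells (median 14.5), against 19.2 to 442 in WT cells (median 190). Mean H3K27me3 ran from 5.41 to 64.1 in K36M cells (median 39.97), against 2.11 to 36.9 in WT cells (median 12.1). Windows with H3K36me2 at least 10-fold lower in K36M numbered 62 of 116 (53.4%), against 817 of 2257 (36.2%) on the other autosomes. Scaled to library totals, 49 of the 116 windows had relatively more H3K36me2 in K36M than in WT cells and 52 had relatively less H3K27me3. In those windows the lines differed less than over the library as a whole.

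**Figure D3:**
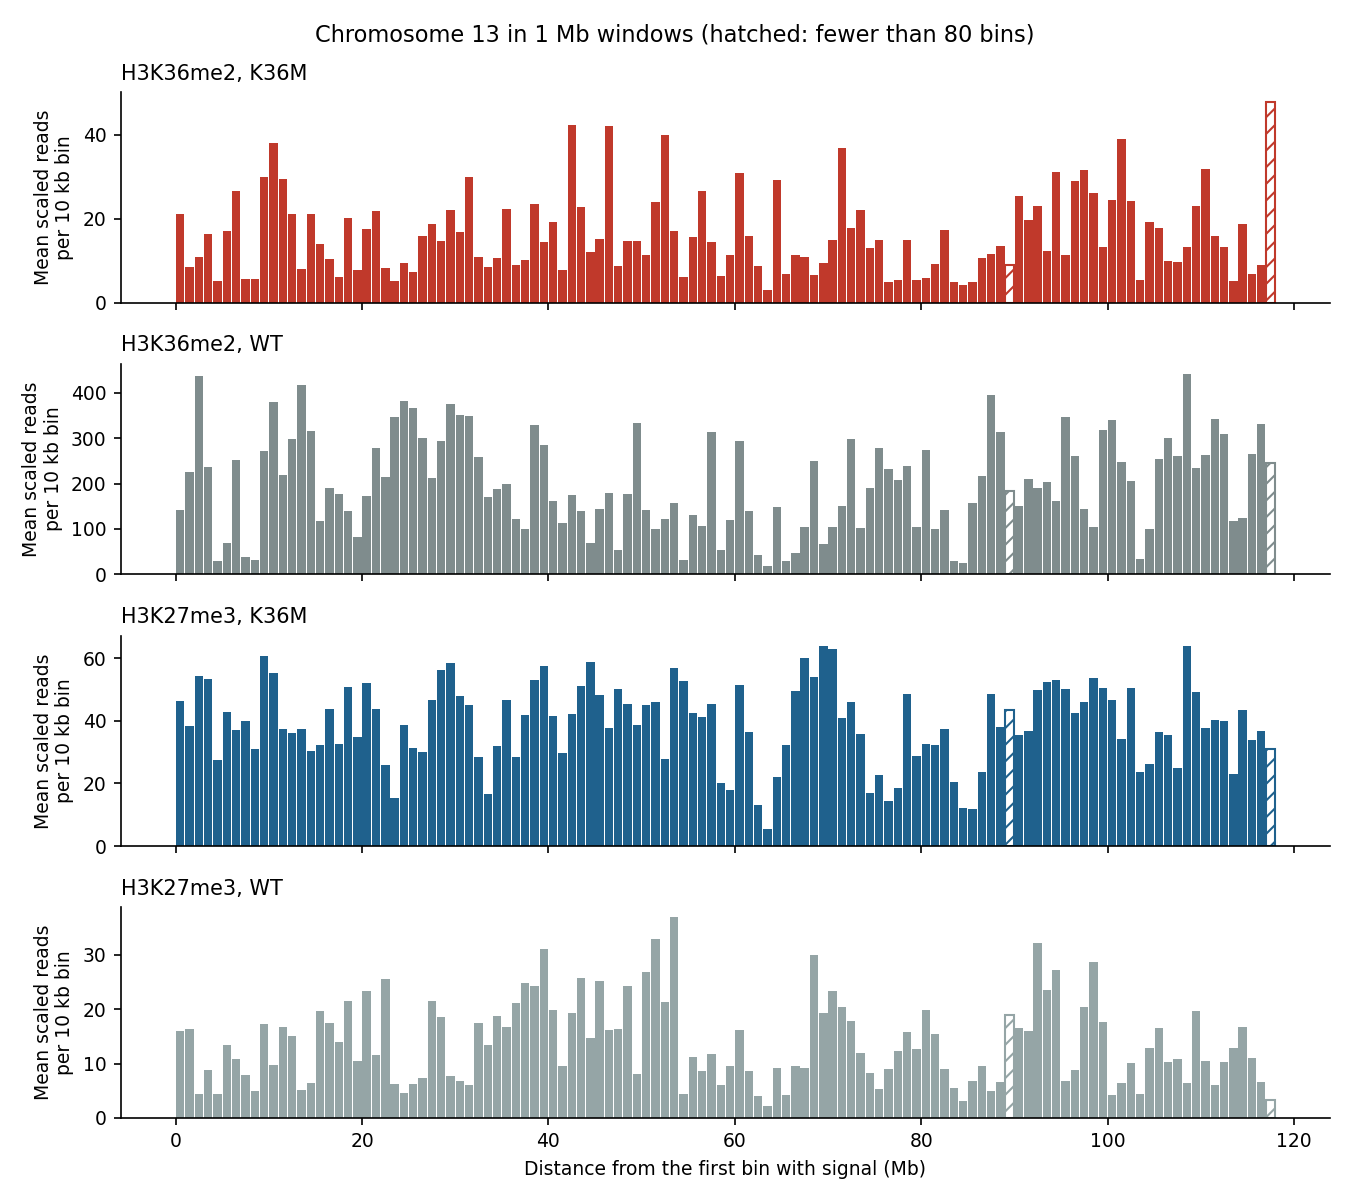
Mean scaled reads per 10 kb bin in 1 Mb windows along chromosome 13, from the first bin with signal, for H3K36me2 and H3K27me3 in K36M and in WT cells; each panel has its own vertical axis, and hatched bars mark windows with fewer than 80 bins. WT H3K36me2 runs from 19.2 to 442 between windows, while K36M H3K36me2 stays at or below 42.4 in the 116 full windows.

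The 4 largest differences in H3K36me2 lay in windows of the highest autosomal quartile of WT H3K36me2. The largest was at chr13:26000001-27000000, with 5.16 scaled reads per bin in K36M cells and 348 in WT cells, 67.4-fold lower (65.7 to 69.2). The window at 16000001 to 17000000 had 8.11 in K36M cells against 418 in WT cells, 51.5-fold lower. Windows starting at 28000001 and 79000001 were 49.9-fold and 48.1-fold lower. The K36M values of these windows, 4.85 to 8.11, lay below the lower quartile of K36M window means on the chromosome, 8.87 (median 14.5). Ranking by ratio favours low K36M values. The windows with the most WT H3K36me2, starting at 111000001 (442) and 5000001 (437), were 33.6-fold and 40.4-fold lower, so the largest differences did not lie at the highest WT levels.

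The 4 smallest differences lay in windows of the second quartile of WT H3K36me2, although the median K36M over WT ratio was highest in the lowest quartile, at 0.168, against 0.131 in the second and 0.0496 in the highest. The window at 55000001 to 56000000 had 39.95 scaled reads per bin in K36M cells and 122 in WT cells, 3.06-fold lower. Windows starting at 101000001, 59000001 and 8000001 were 3.98-fold to 4.01-fold lower. Scaled to library totals, the window at 55000001 turned to 3.09 times its WT value, the highest of the chromosome. It was also among the 3 windows with the most K36M H3K36me2, after those starting at 45000001 (42.4 in K36M and 176 in WT) and 49000001 (42.2 in K36M and 178 in WT). The next by K36M level started at 104000001 (39.1 in K36M and 248 in WT) and 13000001 (38.1 in K36M and 381 in WT), so these 5 windows had WT levels from 122 to 381. Over windows, the K36M and WT levels of H3K36me2 had a Spearman's rho of 0.24 (n = 116), the lowest of the 19 autosomes, with 0.37 to 0.75 on the others. Windows share libraries, depth and base composition, so such correlations describe the chromosome and carry no p-value.

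The ratio of H3K27me3 between the lines was largest in windows that had little of it in WT cells. At chr13:5000001-6000000 the mean was 54.5 scaled reads per bin in K36M cells and 4.40 in WT cells, 12.4 times as much (12.0 to 12.8). This window held 83 of its 96 bins in the highest decile of WT H3K36me2, with means of 10.8 in K36M cells and 437 in WT cells. The window at 57000001 to 58000000 came next, 12.1 times as much, at 52.8 in K36M cells and 4.38 in WT cells. It differed in its H3K36me2, which was only 6.11 in K36M cells and 31.4 in WT cells, with 91 of its 92 bins in the lowest 3 deciles of WT H3K36me2. Windows starting at 103000001 and 111000001 had 11.2 and 10.0 times as much H3K27me3 in K36M as in WT cells, with WT H3K36me2 of 341 and 442. High ratios thus occurred at both ends of the WT H3K36me2 scale on this chromosome.

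H3K27me3 differed least between the lines in 4 windows whose WT level exceeded the autosomal window median of 11.2 scaled reads per bin. At chr13:25000001-26000000 it was 26.0 scaled reads per bin in K36M cells and 25.7 in WT cells, a ratio of 1.01 (0.989 to 1.04), while H3K36me2 there was 8.22 in K36M cells and 215 in WT cells, 26.1-fold lower. The window starting at 36000001 had 16.6 in K36M cells and 13.4 in WT cells, and those starting at 55000001 and 39000001 had ratios of 1.30 and 1.35. Scaled to library totals, the window at 25000001 turned to 0.403 of its WT value, the lowest of the chromosome. The 3 windows with the most WT H3K27me3, starting at 56000001, 54000001 and 95000001, had 56.9, 46.0 and 49.7 in K36M cells against 36.9, 33.0 and 32.3 in WT cells. Their ratios of 1.39 to 1.54 were low for the chromosome, whose median window ratio was 2.88; ranking by WT level favours low ratios.

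Grouped by quartiles of autosomal WT H3K36me2, the windows gave a U shape of H3K27me3 ratios. The 14 windows of chromosome 13 in the lowest quartile had a median H3K27me3 ratio of 4.45, the 24 in the second 2.32, the 26 in the third 2.12 and the 52 in the highest 3.57. The other autosomes had medians of 4.80, 2.24, 2.10 and 3.12 in the same order. The K36M level itself did not form a U: on chromosome 13 the median window mean of H3K27me3 was 29.1, 38.95, 43.0 and 39.3 in K36M cells. In WT cells it was 4.65, 14.1, 18.1 and 10.2, so the high ratios lay where the WT level was low. Highest-quartile windows made up 44.8% of chromosome 13, against 24.0% of the other autosomes. Windows in the highest quartile of K36M H3K27me3 were also 44.8% of chromosome 13, against 24.0%. Of the 52 windows rich in WT H3K36me2, 24 (46.2%) reached that quartile, near the share of all windows of the chromosome. On the other autosomes 190 of 542 such windows (35.1%) reached it, above the share of all their windows. In the 24 of chromosome 13 the H3K27me3 mean was 42.7 to 63.9 in K36M cells and 4.15 to 31.1 in WT cells.

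A few windows rich in H3K36me2 in WT cells were poor in H3K27me3 in K36M cells. There were 4 of 52 (7.69%) on chromosome 13 and 51 of 542 (9.41%) elsewhere whose K36M H3K27me3 lay in the lowest autosomal quartile. On chromosome 13 they started at 26000001, 78000001, 79000001 and 89000001. Their H3K27me3 was 14.4 to 23.6 scaled reads per bin in K36M cells and 5.40 to 9.56 in WT cells, and their H3K36me2 was 4.85 to 14.9 in K36M cells and 216 to 348 in WT cells. H3K36me2 was thus 18.7-fold to 67.4-fold lower in windows where K36M H3K27me3 remained under the median K36M window of the chromosome, 39.97. H3K27me3 was still 1.60 to 4.19 times its WT value in these windows. Over all 116 windows the log2 differences of both marks had a rho of -0.04, and the other autosomes ran from -0.20 to 0.43; over single bins it was -0.27 on chromosome 13, the lowest of the 19 (others -0.24 to 0.04).

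**Figure D4:**
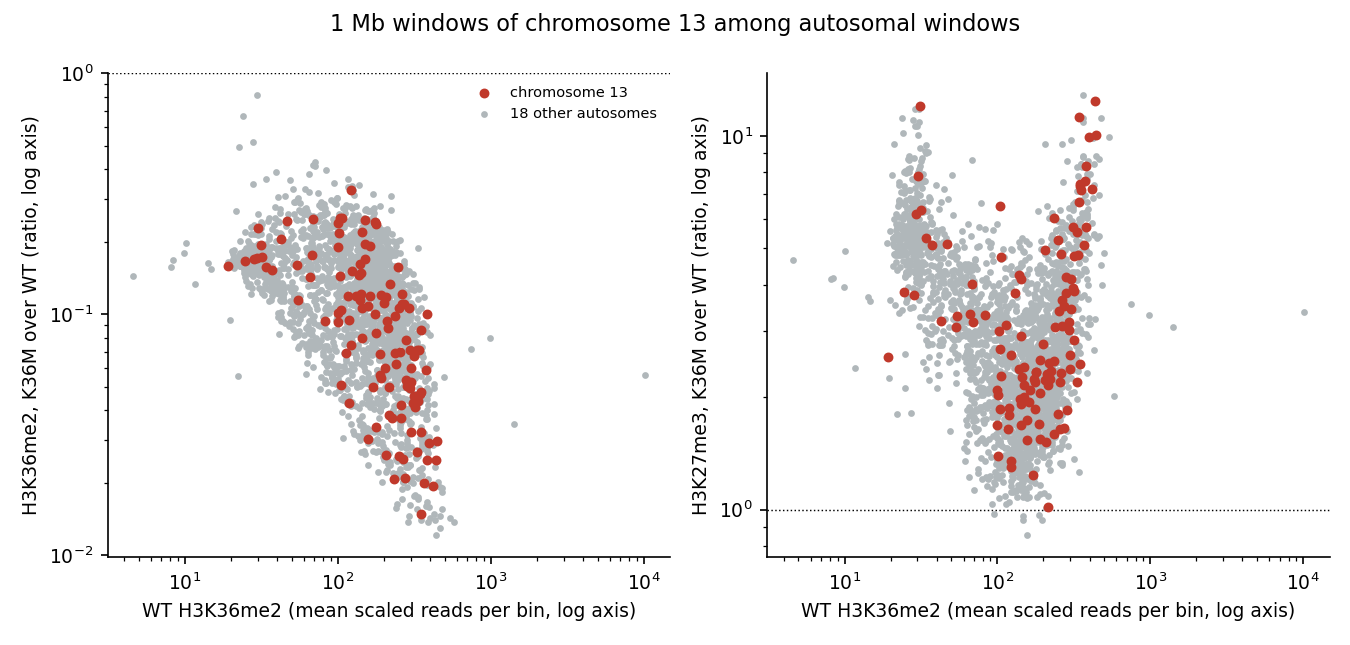
Ratio of K36M over WT (log axis) for H3K36me2 (left) and H3K27me3 (right) against WT H3K36me2 (mean scaled reads per bin, log axis) in 1 Mb windows; red points are the 116 windows of chromosome 13 and grey points the 2257 of the other autosomes. The H3K27me3 ratios form a U over the WT H3K36me2 level, and the red points run along both of its arms, up to 12.4 and 12.1.

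Domains of WT H3K36me2 were taken as runs of bins whose mean over 5 bins reached the autosomal median of 103 scaled reads. Any bin under the median ended a domain, and a run continued across up to 40 kb only where no 10 kb row was kept. Domains held 67.6% of the bins of chromosome 13, the largest share of the 19 autosomes (others 40.3% to 64.7%), and 66.2% of the total domain length lay in domains of at least 1000 kb (others 22.9% to 59.9%). The typical domain was not long: the median of the 156 domains was 155 kb, rank 11 of 19, and the 37 of at least 500 kb ranked 10 of 19. Joined across breaks of up to 40 kb, an alternative chosen after seeing the data, 78.1% of the length lay in domains of at least 1000 kb, rank 4 of 19 (others 35.2% to 80.2%). The longest run below the median, 2680 kb, was shorter than the longest on any other autosome (2740 to 10010 kb). Very long runs below the median were thus missing here, although the median break, 80 kb, was the second longest of the 19 (others 50 to 90 kb).

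In the 37 domains of at least 500 kb, H3K36me2 was 4.93 to 53.2 scaled reads per bin in K36M cells (median 17.5) and 164 to 395 in WT cells (median 276). H3K27me3 was 16.8 to 53.4 in K36M cells (median 40.9) and 5.77 to 20.3 in WT cells (median 10.3). It was higher in K36M than in WT cells in 37 of 37, and at least 2-fold higher in 34. In the 22 runs of at least 500 kb between domains, H3K36me2 was 3.93 to 9.65 in K36M cells and 23.2 to 68.4 in WT cells. H3K27me3 there was 6.52 to 76.9 in K36M cells and 2.47 to 24.8 in WT cells, a wider range than in the domains in both lines. Medians of the H3K27me3 ratio were 3.61 in domains and 3.81 between them.

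The 2 longest domains lay 30 kb apart and differed in H3K27me3. Joined across that break, they formed 1 domain of 11100 kb, the longest of the 19 autosomes under that rule (others up to 9970 kb). The longest, chr13:30430001-36650000, spanned 6220 kb and had 17.9 scaled reads of H3K36me2 per bin in K36M cells and 306 in WT cells, 17.1-fold lower (17.0 to 17.2). Its H3K27me3 was 44.1 in K36M cells and 11.7 in WT cells. The next, chr13:25550001-30400000, spanned 4850 kb and had 10.0 of H3K36me2 in K36M cells and 340 in WT cells, 34.0-fold lower (33.7 to 34.3), with H3K27me3 of 28.7 in K36M cells and 7.95 in WT cells. The left domain had less of both marks in K36M cells than the right one. Inside it, neighbouring windows with like WT H3K36me2 differed: the window starting at 26000001 had 15.3 of H3K27me3 in K36M cells and 6.23 in WT cells, and the window starting at 27000001 had 38.6 in K36M cells and 4.64 in WT cells, with WT H3K36me2 of 348 and 382.

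**Figure D5:**
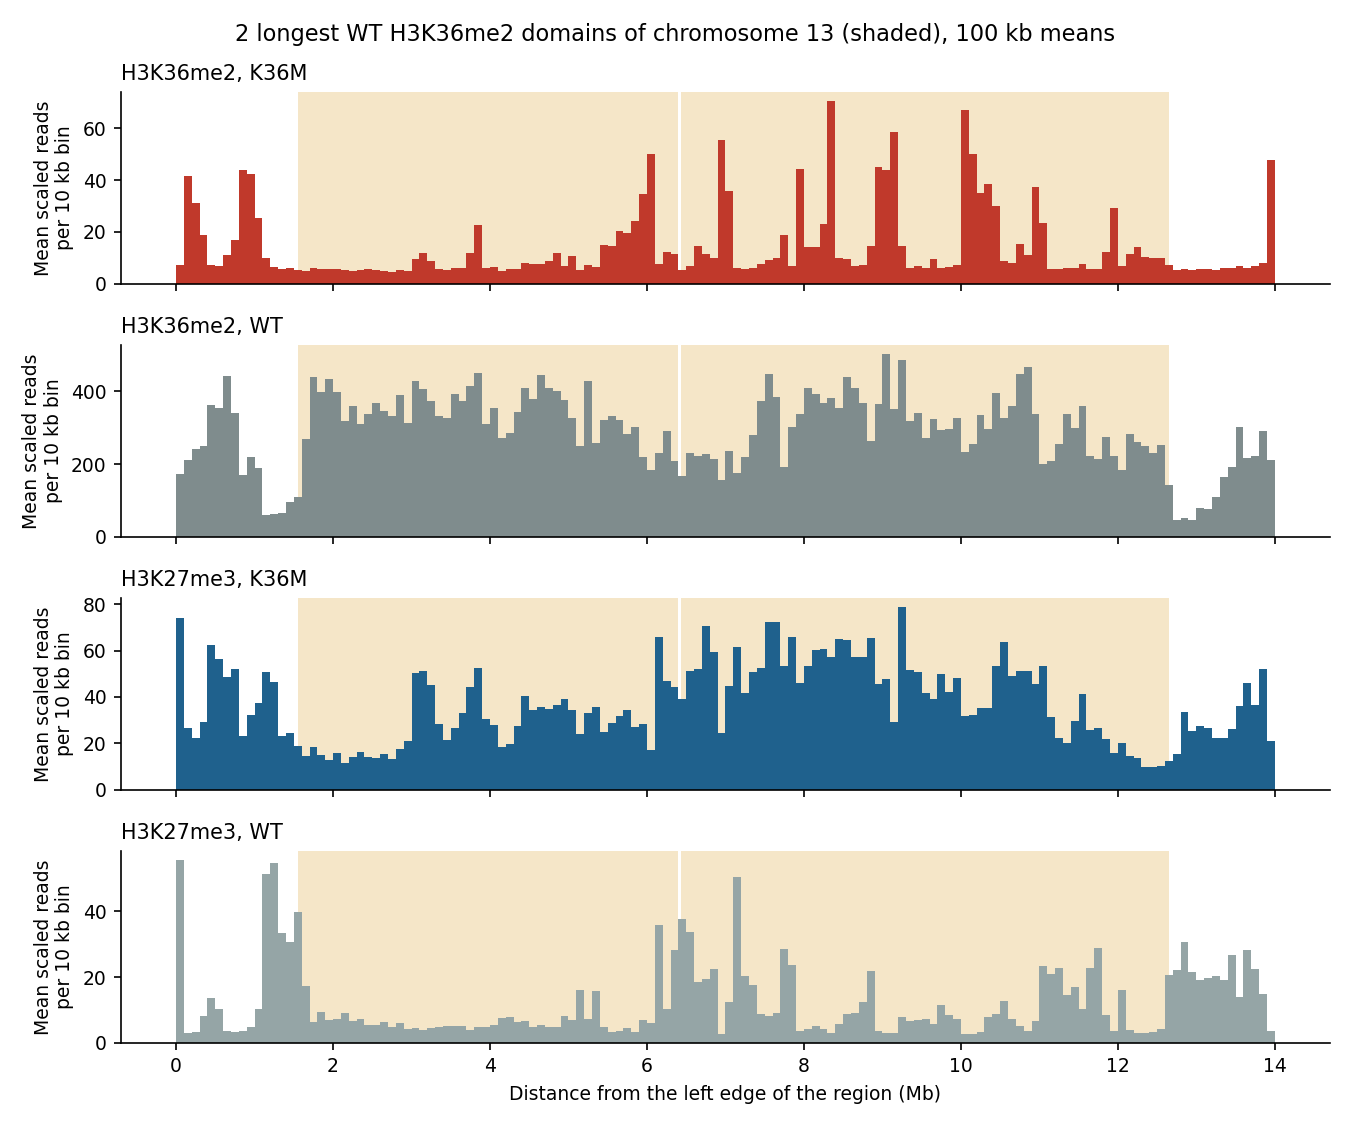
Mean scaled reads per 10 kb bin in steps of 100 kb over 14 Mb that hold the 2 longest WT H3K36me2 domains of chromosome 13 (shaded), the K36M libraries standing over the WT libraries for each mark. H3K27me3 in K36M cells is low over the left part of the left domain and averages 44.1 over the right domain, while WT H3K36me2 is high over both, at 340 and 306.

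The third domain by length, chr13:108090001-112470000, had H3K36me2 of 14.7 in K36M cells and 311 in WT cells, and H3K27me3 of 40.5 in K36M cells and 10.1 in WT cells. The longest run between domains, chr13:85790001-88470000, was poor in both marks in both lines: H3K36me2 was 4.50 in K36M cells and 31.6 in WT cells, and H3K27me3 was 16.3 in K36M cells and 5.16 in WT cells. The next, chr13:6690001-8800000, had H3K27me3 of 39.1 in K36M cells and 9.72 in WT cells, at similar H3K36me2 (5.46 in K36M and 35.0 in WT). Scaled to library totals, H3K36me2 in the 3 longest domains was 0.278 to 0.552 of WT, and in the 3 longest runs between them it turned to 1.11 to 1.47, so the direction between domains rests on the library factors. Relative to the library totals, H3K27me3 was higher in K36M cells in all 6, at 1.26 to 1.65.

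A rule of size called a difference of at least 2-fold with 19.7 added, leaving out the bins whose mean over both lines fell below the 25th percentile. By it H3K36me2 was lower in 9274 of 9973 bins of chromosome 13 (93.0%), against 89.8% of all bins of the table that passed the filter. In this paragraph, shares given as of all bins count only bins that passed it. This is the contrast that chose the chromosome. No bin was higher by that rule, against 0.0177% of all bins. The longest uninterrupted run of lower bins, chr13:108980001-110510000, spanned 1530 kb and ranked 10 of 19 among the autosomes, while runs of at least 500 kb held 21.2% of the bins, rank 3 of 19 (others 8.25% to 32.7%). Runs at 25680001 to 27130000, 117790001 to 119140000 and 19470001 to 20700000 followed, with H3K36me2 of 5.89 to 8.77 in K36M cells and 264 to 372 in WT cells. H3K27me3 was higher by the same rule, with 1.64 added, in 6574 of 9134 bins (72.0%), against 70.1% of all bins, and lower in 29 (0.32%), against 0.161%. The share with higher H3K27me3 is near that of the table, and the share with lower H3K27me3 is above it and ranked 4 of 19. Centred at the median of all bins, chromosome 13 had 5322 bins with lower H3K36me2 (53.4%, against 41.5% of all bins) and 503 with higher (5.04%, against 7.1%). The same centring left 1642 bins with lower H3K27me3 (17.98%, against 19.2%) and 2384 with higher (26.1%, against 18.3%).

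Bins tested for both marks fell into 2 main classes. Of 8296, 5746 (69.3%) had lower H3K36me2 with higher H3K27me3, against 65.0% on the other autosomes, and 2439 (29.4%) had lower H3K36me2 with H3K27me3 within 2-fold, against 33.5%. The first class had a median of 7.64 for H3K36me2 in K36M cells and 289 in WT cells, and of 44.8 for H3K27me3 in K36M cells and 6.76 in WT cells. The second had 6.16 for H3K36me2 in K36M cells and 105 in WT cells, and 41.6 for H3K27me3 in K36M cells and 30.4 in WT cells. The classes had similar H3K27me3 medians in K36M cells and differed in WT cells, a difference that the 2-fold rule itself favours.

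Remaining H3K36me2 in K36M cells sat in short patches. The top 5% of autosomal bins by K36M H3K36me2, at or above 74.6 scaled reads, included 575 bins of chromosome 13 (5.10%; others 2.46% to 7.26%), in 240 runs of at most 11 bins. These bins held 32.7% of the K36M H3K36me2 signal of the chromosome. Their median was 97.5 in K36M cells and 123 in WT cells, below the WT median of 174 for the chromosome. Of the 575, 201 lay in the lower 5 deciles of WT H3K36me2. That is close to the share of all bins of the chromosome, 64.2% of which lay in the highest 5 deciles. The highest decile held 4.00% of the 575, against 19.1% of all bins of the chromosome. H3K27me3 in these 575 bins was low in both lines, with medians of 10.3 in K36M cells and 2.18 in WT cells. They were unevenly spread: 35 of 116 windows had none, and 19 windows with at least 10 each held 311 of them, led by the window at 45000001 with 28. In 240 bins of the chromosome (2.13%, against 2.08% on the other autosomes) H3K36me2 was above its WT value, in runs of up to 80 kb, with medians of 107 in K36M cells and 80.8 in WT cells.

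Strong Polycomb bins were about as frequent as elsewhere. The top 5% of autosomal bins by WT H3K27me3, at or above 51.7, included 532 bins of chromosome 13 (4.72%; others 2.58% to 8.16%). Their H3K27me3 median was 74.9 in K36M cells and 65.8 in WT cells, and their H3K36me2 median was 6.47 in K36M cells and 70.6 in WT cells. Of the windows, 22 with at least 10 such bins held 362 of them, and 48 had none. The window at 56000001 had the most, 33. Between the lines the order of H3K27me3 over windows was kept less than elsewhere: rho was 0.39 on chromosome 13 and 0.50 to 0.79 on the others. In WT cells, H3K36me2 and H3K27me3 over windows had a rho of -0.11. At that scale it was the single negative value among the 19 autosomes (others 0.11 to 0.55). Over single bins the WT rho of chromosome 13 was -0.1003, the lowest by a small margin. There 4 other autosomes were also negative, with chromosome 19 at -0.09999. In K36M cells the rho over windows was 0.43 (others -0.10 to 0.58).

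Signal of WT H3K36me2 was spread more evenly over chromosome 13 than over other autosomes. The top 10% of its bins held 24.5% of it (others 26.4% to 46.4%), while in K36M cells the top 10% held 50.6%, inside the range of the others (44.1% to 56.2%). For H3K27me3 the top 10% held 22.0% in K36M cells and 40.6% in WT cells (others 42.0% to 48.9% in WT). Bins 300 kb apart were less alike in K36M H3K36me2 than in WT H3K36me2, with rho of 0.26 in K36M cells and 0.54 in WT cells, and the K36M value was the lowest of the 19 autosomes (others 0.29 to 0.46). For H3K27me3 at 300 kb the order was the reverse, with rho of 0.26 in K36M cells and 0.13 in WT cells. Medians over the other autosomes were ordered alike. They were 0.38 in K36M and 0.58 in WT for H3K36me2, and 0.21 in K36M and 0.13 in WT for H3K27me3. In each mark the library with the lower rho also had fewer reads in the median bin of the chromosome, and the part of depth was not tested. At 3000 kb rho was below 0.10 in all 4 libraries.

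Averaged over 5 Mb, H3K36me2 differed more between the lines at each end of the chromosome than over the whole stretch between the ends. The difference was not even within the ends. Mouse chromosomes have their centromere at the start, so the first 5 Mb of bins (3000001 to 8000000) lie next to it. There H3K36me2 averaged 12.4 scaled reads per bin in K36M cells and 214 in WT cells, 17.3-fold lower, and in the last 5 Mb (115270001 to 120270000) it averaged 11.6 in K36M cells and 225 in WT cells, 19.5-fold lower, against 11.9-fold lower between them. In the first 5 Mb the windows ran from 5.82-fold lower at 7000001 to 40.4-fold lower at 5000001. The window nearest the centromere, at 3000001, was 6.74-fold lower. In the last 5 Mb they ran from 5.13-fold lower in the final 23 bins, from 120000001, to 39.7-fold lower at 118000001. Whether the ends differ from interior stretches of 5 Mb was not tested for either mark. The interior domains starting at 25550001 (4850 kb) and 108090001 (4380 kb) had H3K36me2 34.0-fold and 21.2-fold lower, more than either end. The longest domain (6220 kb) was 17.1-fold lower, less than either end. Domains were defined by high WT H3K36me2. H3K27me3 in K36M cells was 4.36 times WT in the first 5 Mb, 3.07 times in the last and 2.77 times between. The lowest window in all 4 libraries was at 66000001 to 67000000, with H3K36me2 of 3.04 in K36M cells and 19.2 in WT cells and H3K27me3 of 5.41 in K36M cells and 2.11 in WT cells. A 650 kb interval at 92140001 to 92790000 had no signal in any library.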

How the data were processed

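Per the labels' protocols, chromatin was digested with micrococcal nuclease to mononucleosomes and mixed with Drosophila S2 chromatin before immunoprecipitation; sequencing libraries were of the Illumina TruSeq type. Alignment with Bowtie 1.0.0 is named in the submitters' processing notes, which list mm9 (mouse) and dm6 (fly) as builds. How reads were counted or deduplicated, and how the factors were made, is not stated in the sources read for this work. The deposited signal is coverage per interval. Tested on the table, 100% of the values in each library lay within 0.01 read of a whole multiple of 1 step (H3K36me2: 0.078 in K36M and 0.636 in WT; H3K27me3: 0.295 in K36M and 0.109 in WT), which gave back the reads. An error in a factor multiplies all bins of its library. No count test was run on the recovered reads, since each group has 1 library.

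Rows of 10 kb with signal were kept. Log2 ratios used the 5th percentile of WT values above 0 as pseudocount (19.7 and 1.64) and understate differences in low bins. Ratios of summed reads carry exact binomial (Clopper-Pearson) 95% intervals. The median bin of the chromosome gives 95% half-widths of 20.9%, 11.8%, 17.7% and 24.5% in the same library order (normal approximation). Named windows were the 4 with the lowest and highest ratio of each mark, the 3 with the highest K36M H3K36me2 and the 3 with the highest WT H3K27me3; named runs were the 4 longest of lower H3K36me2 and the 3 longest domains and breaks. Windows in the lowest quartile of K36M H3K27me3 and the H3K27me3-lower bins were added after their values were seen. So were the windows starting at 3000001, 7000001, 13000001, 27000001, 66000001, 104000001, 118000001 and 120000001. The chromosome, windows and rules were chosen with earlier results of these data known. No mouse annotation or genome was used here, so regions are given by position without genes or sequence, and the planned gene lists were not applied. The 2-fold rule and the ratio intervals were tested on simulated reads, and the other steps were not. For the rule, most simulated bins were unchanged and both lines had the same factor, unlike these data. Values were computed in Python 3.11.15 with pandas 2.3.3, numpy 2.4.6 and scipy 1.17.1, and plots drawn with matplotlib 3.10.9.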

Additional observations from a re-analysis of the deposited data

How the results depend on the processing

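For 12 results, 39 alternatives were computed; 16 moved the value beyond its spread (counting intervals for ratios, the standard deviation over the other autosomes for differences and correlations, 1.5 times for counts, an exact binomial interval for the share near domain edges) and 23 did not. The direction changed for 3 differences at matched WT H3K36me2. With WT H3K27me3 also matched they were 0.01 for H3K36me2 and 0.08 for H3K27me3, and with the median as pseudocount 0.04 for H3K27me3. The 0.08 exceeded the standard deviation over the other autosomes under its own setting, 0.07. The H3K36me2 ratio was 0.0394 from medians, 0.372 from medians scaled to library totals, 0.0801 without extreme bins and 0.0814 with rows of other widths. In the same order of settings, H3K27me3 gave 5.20, 2.07, 2.834 and 2.86. The H3K36me2 difference from other autosomes was -0.51 with the median as pseudocount and -0.47 over 1 Mb windows, and chromosome 13 had the lowest value of the 19 under each of the 5 settings. Centring left 5322 bins with lower H3K36me2 and 2384 with higher H3K27me3, and a 4-fold rule left 4199 with higher H3K27me3. The relation of the changes was -0.27 over single bins. Joining domains across breaks of up to 40 kb, chosen after seeing the data, gave a longest domain of 11100 kb and 78.1% of domain length in domains of at least 1000 kb, and 69.0% of the bins with lower H3K27me3 near a domain edge. No paired analysis was possible because each group has 1 library, and for the same reason no library could be left out. Depth limits single bins most in WT H3K27me3, where the median bin of the chromosome held 64 reads.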

Other observations

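The 29 bins of chromosome 13 in which H3K27me3 was lower by the 2-fold rule were looked at after their values were seen. They lay in 7 stretches, and 14 of them were spread over chr13:14850001-15240000. Those 14 bins alone, without the bins between them, averaged 21.9 scaled reads of H3K27me3 in K36M cells and 56.8 in WT cells. Their H3K36me2 was 5.48 in K36M cells and 115 in WT cells. A further 7 lay within chr13:25500001-25620000, across the left edge of the second longest WT H3K36me2 domain. These 7 bins alone averaged 17.95 of H3K27me3 in K36M cells and 44.5 in WT cells. A single one lay in the 30 kb break between the 2 longest domains, and 3, at 36660001 to 36690000, lay just past the far edge of the longest.

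Most of the 29 bins were near domain edges. The median distance of the 29 to the nearest edge of a domain of at least 500 kb was 45 kb, and the largest was 1835 kb. For all 9134 bins tested on the chromosome the median was 505 kb. Of the 29, 21 (72.4%) lay within 100 kb of an edge, against 11.2% of the tested bins. On the other autosomes, 151 of 269 such bins (56.1%) lay within 100 kb of an edge, against 11.4% of those tested. With domains joined across breaks of up to 40 kb, the shares were 69.0% (20 of 29) on chromosome 13, against 11.6% of the tested bins, and 50.6% on the other autosomes, against 12.7%. Many of these bins adjoin one another, so they are far fewer independent places than bins, and no test was made. The rule also favours bins with high WT H3K27me3, and whether such bins are near edges in general was not tested.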
